A study of Mus musculus with 9 samples.

Results

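The decay of mRNAs after transcription was blocked was compared between C2C12 cells given an siRNA against Mbnl1 and C2C12 cells given a control siRNA. C2C12 is a mouse myoblast line, and all cells were in growth medium with serum. Actinomycin D at 5 ug/ml was added to the siRNA-treated cells, and total RNA was taken at 0, 2.5 and 5 h, with 1 Affymetrix whole-transcript array for each siRNA and time. The comparison used 6 of the 9 arrays of the series, 3 with Mbnl1 siRNA and 3 with control siRNA. The other 3 arrays, with an siRNA against Cugbp1 (current symbol Celf1), entered the estimate of the spread and a ranking of mRNAs by speed of loss. They also entered the mean intensities that decided which genes and probe sets were used. Their values are given beside some genes. All genes with a single symbol and a mean log2 intensity of at least 7.38 over the 9 arrays were included, which left 9864 of 19938 named genes.

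MBNL1 (muscleblind-like 1) is an RNA-binding protein known in muscle for regulating alternative splicing, and it is sequestered by expanded CUG repeats in myotonic dystrophy. It has also been studied as a regulator of mRNA stability and localisation. Actinomycin D blocks transcription, so the loss of an mRNA during the chase follows its decay, and mRNAs of transcription factors, cytokines and cell-cycle regulators are known as short-lived. Mature mRNA is usually degraded after its poly(A) tail is shortened, then decapped or digested from the 3′ end.

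The measure for each gene was the log2 change over time in Mbnl1 siRNA cells minus the log2 change over the same time in control siRNA cells, called the difference of changes. A negative value means that the mRNA declined further, or gained less, relative to the other transcripts under Mbnl1 siRNA than under control siRNA, and a positive value the opposite. Each unit is a factor of 2 in the share left. The test was limma's moderated test of the difference in hourly slope, and its estimate times 5 equals the 5 h difference, which is given ± its standard error (SE, n = 3 arrays per siRNA). Each siRNA and time had a single array, and separate cultures are not stated. The p-values therefore measure departure from the siRNA-by-time variation left after the straight lines. That variation has 2 residual degrees of freedom per gene. limma combined it with a prior variance pooled over the genes tested, worth 4.44 degrees of freedom. The SEs use the same combined variance, so the prior sets a floor, and the smallest SE of a 5 h difference was 0.079. SEs near that value rest mostly on the prior. Precision is limited by the small number of arrays.

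Mbnl1 itself had log2 intensities of 10.24, 10.05 and 9.79 at 0, 2.5 and 5 h in Mbnl1 siRNA cells, against 12.43, 12.50 and 12.44 in control siRNA cells. Its level was thus 22.0%, 18.3% and 15.9% of control at those times. All 3 Mbnl1 siRNA arrays lay below all 3 control arrays, which checks the labels. Median intensities of the 9 arrays were 104.92 to 113.01, and array pairs correlated at 0.980 to 0.995 across probe sets. Of 9 myoblast markers 8 were above the intensity limit, all but Myog, whereas the adipocyte, endothelial and osteoblast markers on the array (2 of 4 for osteoblasts) were all below it. The summed intensity of the 9 was 25270 to 25745 in Mbnl1 siRNA cells and 27043 to 27833 in control siRNA cells. Of 4 macrophage or leukocyte markers only Cd68 was above it. The summed intensity of those 4 was 875 to 1083 in Mbnl1 siRNA cells and 483 to 557 in control siRNA cells. The summed intensity of 8 markers of differentiated muscle was 5552 to 6069 with Mbnl1 siRNA and 3922 to 4651 with control siRNA. The summed intensity of 4 fibroblast markers, 3 of them above the limit, was 3319 to 3419 with Mbnl1 siRNA and 2402 to 2683 with control siRNA. In bulk RNA, more cells of a type and more RNA per cell cannot be told apart, and the part of these differences in the decay values was not tested.

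For most mRNAs the 2 arms differed by little. The 5 h difference of changes had a median of 0.01 over the 9864 genes, with quartiles of −0.09 and 0.10, and the median SE of a single gene's difference was 0.09. Of the genes, 5082 (51.5%) were above 0 and 4780 (48.5%) below 0. The 5th and 95th percentiles were −0.30 and 0.26, and the extremes were −1.52 and 1.28. At 2.5 h the quartiles were −0.08 and 0.08. Over 5 h, 622 genes had a log2 change below −1 in Mbnl1 siRNA cells, against 608 in control siRNA cells, and 481 of these were below −1 in both. Across genes, the 5 h changes of the 2 arms had a Pearson correlation of 0.928 and a Spearman correlation of 0.879; genes are not independent replicates, and all points share the same 4 arrays.

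Only 2 genes passed the test, and both were lost faster under Mbnl1 siRNA. With p-values adjusted by Benjamini-Hochberg over the 9864 genes (limma, threshold 0.05), 0.0203% of genes were called below 0 and 0 were called above 0. At an unadjusted p under 0.05 there were 782 genes below 0 (7.93%) and 579 above 0 (5.87%), together 13.8% of genes. The adjusted p-values did not separate the calls sharply from the rest. The next 19 genes shared an adjusted p of 0.0514, and between 0.05 and 0.1 there were 87 genes below 0 and 24 above 0. With limma's intensity trend in the prior variance, 148 genes were called below 0 and 44 above 0. Without the Mbnl1 siRNA array at 2.5 h the counts were 151 below 0 and 52 above 0, and without that at 5 h they were 6 and 1. Of 100 genes examined singly, 66 had a 5 h difference that moved by over 1.5 times or changed sign when 1 array was left out. The range is given beside some of them below.

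Dync1li1, a light intermediate chain of the cytoplasmic dynein motor, had log2 intensities of 10.51, 9.50 and 8.72 at 0, 2.5 and 5 h under Mbnl1 siRNA. In control siRNA cells they were 11.40, 11.31 and 11.13. The Mbnl1 siRNA values went down at each step and all 3 lay below every control value. Such a gap between the siRNAs, here and in genes below, is one of level and not of decay. The share of all genes with such a gap was not counted. At 5 h, 29.0% of the 0 h level was left under Mbnl1 siRNA, against 77.4% under Cugbp1 siRNA and 83.0% under control siRNA. The difference of changes was −0.92 at 2.5 h and −1.52 ± 0.11 at 5 h, with an adjusted p of 0.0279 (limma). The level before actinomycin D was already lower, at 53.8% of control.

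Ctns encodes cystinosin, the lysosomal cystine transporter. Its log2 intensities were 8.90, 8.09 and 7.21 under Mbnl1 siRNA and 9.26, 9.35 and 9.07 under control siRNA. Again no Mbnl1 siRNA value reached the lowest control value, and the gap widened at each time. The share left at 5 h was 31.0% with Mbnl1 siRNA, 86.3% with Cugbp1 siRNA and 87.6% with control siRNA. The difference of changes was −0.90 at 2.5 h and −1.50 ± 0.11 at 5 h, with an adjusted p of 0.0279 (limma). At 0 h Ctns was at 77.9% of control, and at 5 h its Mbnl1 siRNA value lay below the limit of 7.38. Both genes have 1 probe set. No gene was called in either direction when only the 6 Mbnl1 and control siRNA arrays were fitted, with no shared time course, with a step in place of the hourly line, with no intensity limit, or without any 1 of 6 arrays. Both genes kept their sign in each alternative that tested them, but many of these could not change it. The estimate rests on the 0 h and 5 h arrays of Mbnl1 and control siRNA. It stayed the same without a shared time course, without an intensity limit, and without a 2.5 h or Cugbp1 siRNA array.

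**Figure D1:**
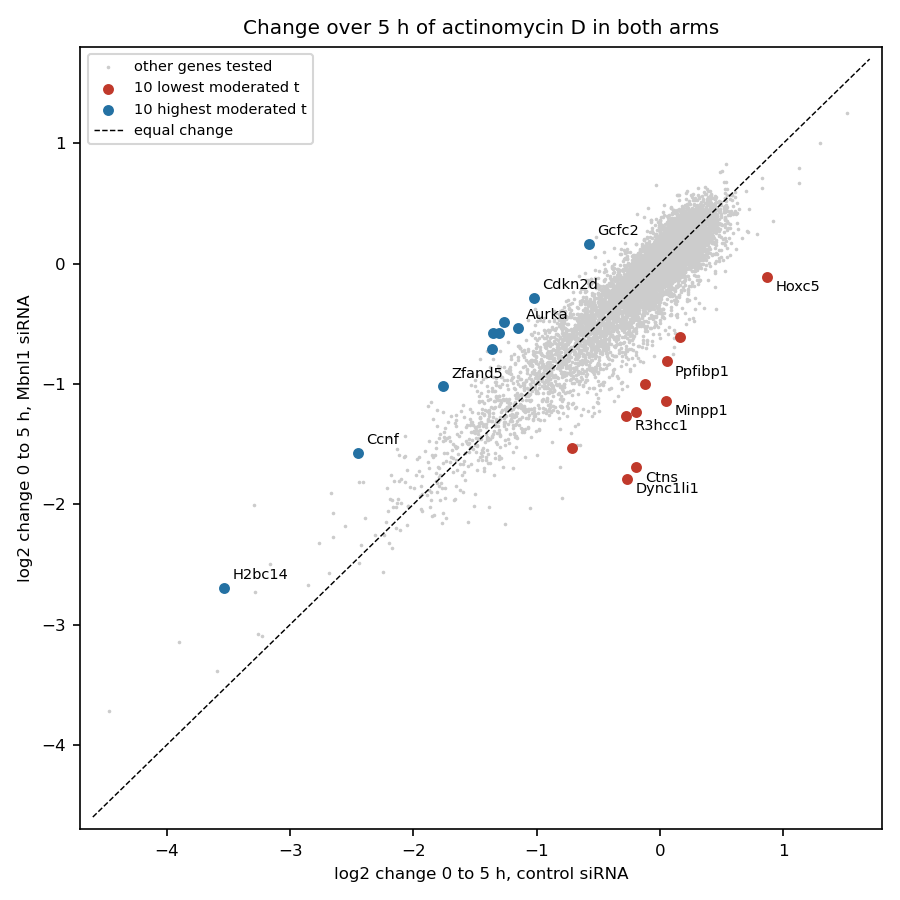
The log2 change over 5 h of actinomycin D under Mbnl1 siRNA (vertical axis) is plotted against that under control siRNA (horizontal axis) for 9864 genes, with the 10 lowest moderated t values in red and the 10 highest in blue. Most points lie near the dashed line of equal change, while Dync1li1 and Ctns lie below it, at differences of −1.52 and −1.50.

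The next genes in order of the test did not pass it, and they were of varied function. Ppfibp1 encodes liprin-beta-1, a scaffold protein. It had log2 intensities of 10.72, 10.33 and 9.91 under Mbnl1 siRNA and 11.62, 11.67 and 11.68 under control siRNA, a 5 h difference of −0.87 ± 0.08 (adjusted p = 0.0514, limma). The control values did not decline, whereas 56.9% of the 0 h level was left with Mbnl1 siRNA. Minpp1, an inositol polyphosphate phosphatase of the endoplasmic reticulum, had 8.81, 8.04 and 7.67 under Mbnl1 siRNA and 9.96, 9.92 and 10.01 under control siRNA. Its 5 h difference was −1.19 ± 0.11 (adjusted p = 0.0514, limma), but another, dimmer probe set had 0.89 at 2.5 h and −0.20 at 5 h, so the 2 probe sets disagree.

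Nab1 encodes a corepressor of EGR transcription factors. Its log2 intensities were 9.94, 9.68 and 9.33 under Mbnl1 siRNA and 11.02, 11.15 and 11.19 under control siRNA, with a 5 h difference of −0.78 ± 0.08. R3hcc1 had 9.04, 8.42 and 7.78 under Mbnl1 siRNA and 9.90, 9.88 and 9.62 under control siRNA, with a difference of −0.99 ± 0.10. In both genes, as in Ppfibp1 and Minpp1, the 2 arms did not overlap and the 0 h level under Mbnl1 siRNA was well below control: 47.2% for Nab1, 55.2% for R3hcc1, 53.6% for Ppfibp1 and 45.0% for Minpp1. Fam136a, at 70.8% of control at 0 h, had a 5 h difference of −0.88 ± 0.10. Its later Mbnl1 siRNA values, 7.37 and 6.95, lay below the intensity limit.

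Mxd1, Ppargc1a and Hoxc5 had another shape. Mxd1 encodes a partner of MAX that antagonises MYC. It had 9.78, 8.75 and 8.55 under Mbnl1 siRNA and 8.13, 7.78 and 7.94 under control siRNA. It started at 313% of control, all its Mbnl1 siRNA values lay above all control values, and its 5 h difference was −1.04 ± 0.12. Ppargc1a encodes the coactivator PGC-1alpha of mitochondrial biogenesis; it had 9.13, 8.15 and 7.60 under Mbnl1 siRNA and 7.26, 6.76 and 6.54 under control siRNA. Its 5 h difference was −0.82 ± 0.09, but the control values were all below the intensity limit, which the gene passed only through its values under Mbnl1 and Cugbp1 siRNA. Its dimmer probe set had −0.62 at 2.5 h and −1.42 at 5 h. Hoxc5, a homeobox transcription factor, had 7.38, 7.66 and 7.27 under Mbnl1 siRNA and 7.16, 8.01 and 8.02 under control siRNA. Its 0 h values under Mbnl1 and control siRNA and its 5 h Mbnl1 siRNA value lay below the intensity limit. Here the difference of −0.98 ± 0.10 came with a higher level in control cells during the chase, while 92.7% was left at 5 h under Mbnl1 siRNA. The adjusted p of each of these 3 genes was 0.0514 (limma).

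On the positive side, the smallest adjusted p was also 0.0514 (limma). It belonged to H2bc14, Zfand5 and Yju2. Zfand5, a zinc finger protein gene, had log2 intensities of 10.95, 10.29 and 9.93 under Mbnl1 siRNA and 10.63, 9.53 and 8.87 under control siRNA. It had 49.3% left at 5 h with Mbnl1 siRNA, 40.1% with Cugbp1 siRNA and 29.5% with control siRNA, a difference of 0.74 ± 0.09. Yju2, which encodes a splicing factor, had 8.86, 8.44 and 8.28 under Mbnl1 siRNA and 9.22, 8.52 and 7.87 under control siRNA. The arms crossed, and its difference was 0.77 ± 0.09.

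Ccnf and Aurka, of the G2/M and mitosis list, were among the 10 highest values of the test, but neither passed it. Ccnf encodes cyclin F, a substrate receptor of an SCF ubiquitin ligase. It had 10.56, 9.60 and 8.99 under Mbnl1 siRNA and 10.97, 9.38 and 8.52 under control siRNA, a 5 h difference of 0.88 ± 0.12 (adjusted p = 0.0642, limma). Aurka encodes a mitotic kinase, and had 10.25, 9.98 and 9.72 under Mbnl1 siRNA and 10.88, 10.31 and 9.73 under control siRNA, a difference of 0.62 ± 0.08. With 1 array left out they were 0.58 to 1.17 for Ccnf and 0.56 to 0.68 for Aurka. Both began lower and ended at or above the control value. Cdkn2d, a cyclin-dependent kinase inhibitor gene, had a difference of 0.74 ± 0.09 and likewise began lower, at 61.2% of control. Its later Mbnl1 siRNA values, 7.27 and 7.34, and its 5 h control value, 7.31, lay below the intensity limit.

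Plk3 and Nabp1 began higher and stayed higher. Plk3, a Polo-like kinase gene, had log2 intensities of 12.04, 11.70 and 11.56 under Mbnl1 siRNA and 10.86, 9.97 and 9.59 under control siRNA. The arms did not overlap, and 71.4% was left with Mbnl1 siRNA, against 37.9% with Cugbp1 siRNA and 41.6% with control siRNA. Its 5 h difference was 0.78 ± 0.11 (adjusted p = 0.0696, limma), or 0.48 to 1.08 with 1 array left out. Nabp1 encodes a single-stranded DNA-binding protein, and its difference was 0.74 ± 0.10 (adjusted p = 0.0642, limma) with a 0 h level of 198% of control. Gcfc2 and Snx16 completed the 10, with differences of 0.74 ± 0.09 and 0.65 ± 0.09. The 5 h control value of Snx16, 6.89, lay below the intensity limit.

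**Figure D2:**
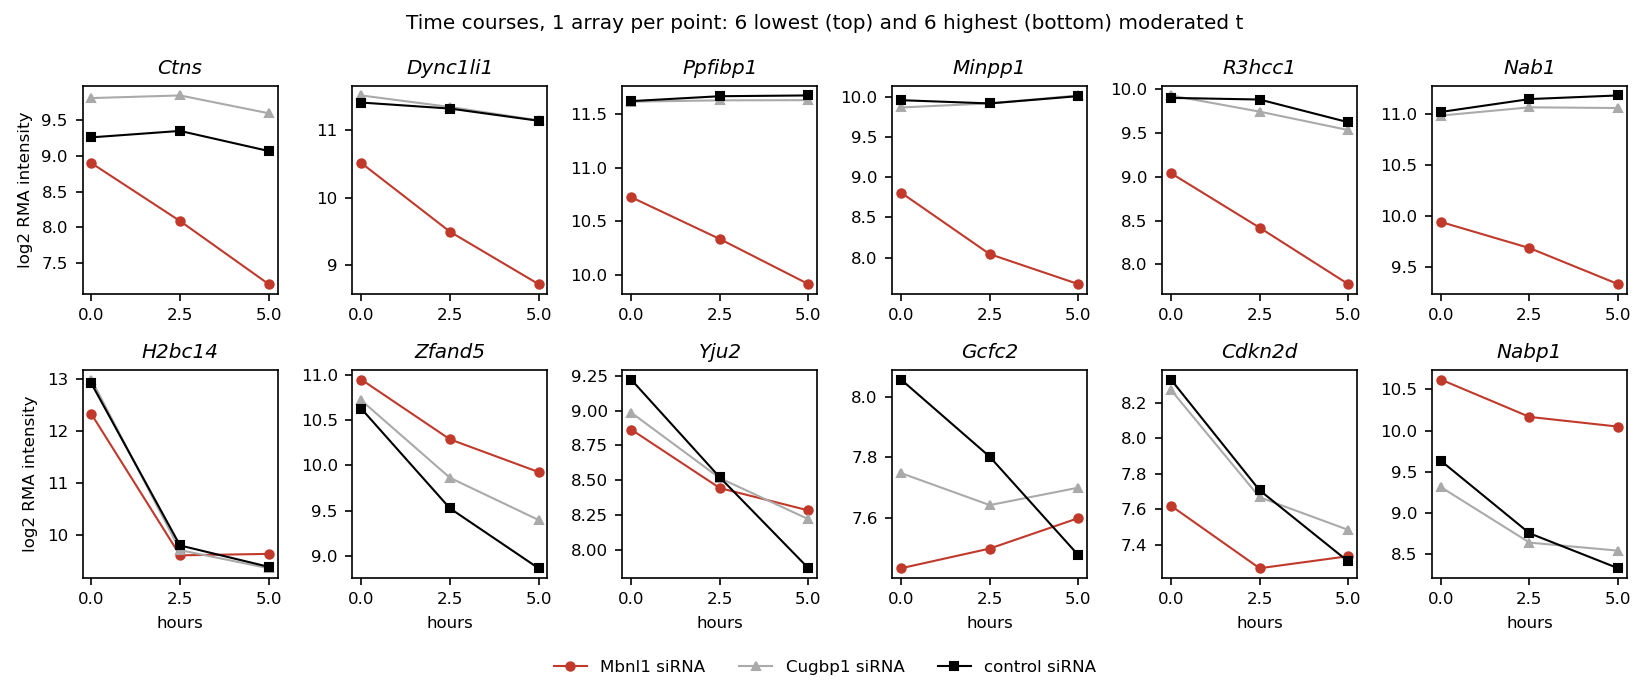
Log2 RMA intensity is plotted against hours of actinomycin D for the 6 genes with the lowest (top) and the 6 with the highest (bottom) moderated t; each point is 1 array, with Mbnl1 siRNA in red, Cugbp1 siRNA in grey and control siRNA in black, and each panel has its own vertical scale. In the top panels the red line slopes down while the other lines are nearly flat, and in the bottom row H2bc14 reaches about the same level in all arms by 2.5 h.

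By size alone, 125 genes had a 5 h difference below −0.5 (1.27%) and 52 had one above 0.5 (0.527%). At 2.5 h there were 47 below −0.5 (0.476%) and 24 above 0.5 (0.243%), and 25 genes were below −0.5 and 14 above 0.5 at both times. The 125 genes had a median 5 h change of −0.83 under Mbnl1 siRNA, −0.20 under Cugbp1 siRNA and −0.21 under control siRNA. Of them, 47 had a change below −1 under Mbnl1 siRNA, 7 under Cugbp1 siRNA and 8 under control siRNA. Since the choice of these genes used the Mbnl1 and control siRNA arms, their medians there only describe them.

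Of the 52 genes above 0.5, 22 had a change below −1 under Mbnl1 siRNA, 28 under Cugbp1 siRNA and 39 under control siRNA. Their median 5 h change was −0.79 under Mbnl1 siRNA, −1.10 under Cugbp1 siRNA and −1.39 under control siRNA. Before actinomycin D, 81 of the 125 and 40 of the 52 had a lower level under Mbnl1 siRNA than under control siRNA. The 0 h arrays enter both this level and the difference that chose the genes, so these counts only describe them. The share of all genes lower at 0 h was not counted. In 31 of the 125 and 14 of the 52, at least 1 of the 6 values lay below the intensity limit. Past 1 in size were Dync1li1, Ctns, Minpp1, Fam20c and Mxd1 below 0 (0.0507%) and H2bc18 above 0 (0.0101%), named here after their values were seen. Fam20c encodes a Golgi kinase of secreted proteins; its log2 intensities were 9.55, 8.38 and 7.60 under Mbnl1 siRNA and 10.04, 9.63 and 9.25 under control siRNA, a difference of −1.16 ± 0.21 (adjusted p = 0.0985, limma). Without the Mbnl1 siRNA array at 0 h that of Fam20c was −0.55, and without that at 5 h −1.77. The comparison of Cugbp1 siRNA with control uses the same control arrays; there 16 genes had a 5 h difference below −0.5 (0.162%) and 62 above 0.5 (0.629%).

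Genes were then ranked by their 5 h change in the Cugbp1 siRNA arm, which is outside the contrast, and split into deciles. In the decile with the largest loss (986 genes with changes between −4.44 and −0.65), 39 genes had a difference above 0.5 (3.96%) and 16 below −0.5 (1.62%). Thus 39 of all 52 genes above 0.5 were among the fastest-lost decile of mRNAs. In the second decile, with changes between −0.65 and −0.32, the counts were 6 above 0.5 and 33 below −0.5 (3.35%). From the third decile on, 0 to 2 genes per decile were above 0.5 and 5 to 19 below −0.5. The median difference stayed near 0 throughout, at 0.05 in the first decile and −0.01 to 0.01 in the others. By brightness, the dimmest decile held 6 genes above 0.5 and 23 below −0.5, and the brightest decile 1 of each.

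**Figure D3:**
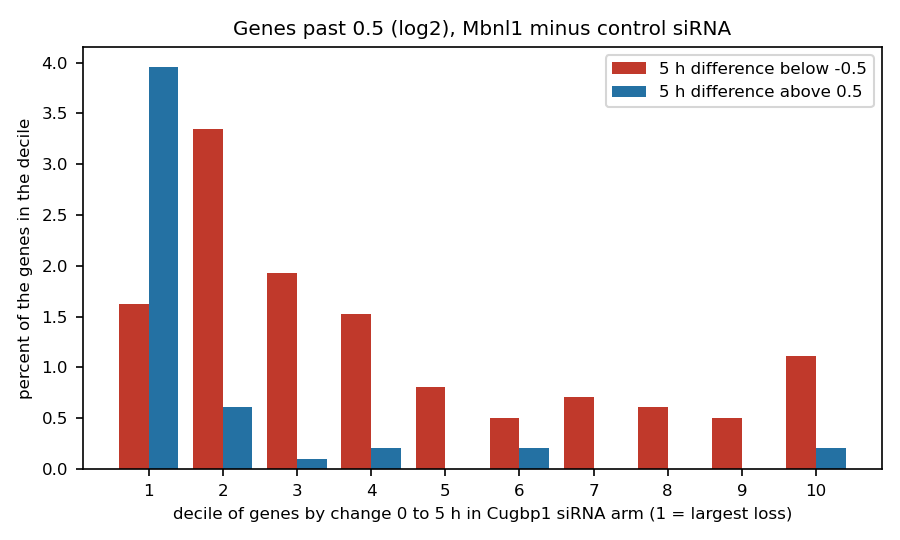
Bars give the percent of genes in each decile whose 5 h difference of changes (Mbnl1 minus control siRNA) was below −0.5 (red) or above 0.5 (blue); deciles are ordered by the change in the Cugbp1 siRNA arm, with the largest loss at 1. Values above 0.5 are concentrated in the first decile (3.96%), and values below −0.5 peak in the second (3.35%).

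Genes were next described by function. Counts at an unadjusted p under 0.05 in the lists are to be read beside the shares over all genes, 7.93% below 0 and 5.87% above 0. Of the 35 lists, only that of dynein, kinesin and dynactin had a called gene, Dync1li1, 1 of its 23 tested members. The list as a whole had a median difference of 0.00, against 0.01 over all genes. Pafah1b1, named after its values were seen, encodes the dynein regulator LIS1. It had 9.17, 8.31 and 7.67 under Mbnl1 siRNA and 10.41, 10.13 and 9.76 under control siRNA, with 35.2% left at 5 h under Mbnl1 siRNA against 63.9% under control siRNA. Its difference was −0.86 ± 0.12 (adjusted p = 0.0649, limma), and −1.19 to −0.54 with 1 array left out. No other dynein, kinesin or dynactin gene was below −0.5 and the highest was at 0.18.

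Replication-dependent histone mRNAs, which end in a stem-loop instead of a poly(A) tail and are known to be degraded when DNA synthesis stops, were among the fastest-lost transcripts. Of 27 on the array 14 were tested, and 0 were called. Of the 14, 13 had a difference above 0, 6 above 0.5, 8 an unadjusted p under 0.05 above 0 and 0 below 0, and the list median was 0.41 (all genes 0.01). H2bc18 had log2 intensities of 9.53, 7.46 and 7.52 under Mbnl1 siRNA and 10.66, 7.95 and 7.36 under control siRNA, a difference of 1.28 ± 0.19 (adjusted p = 0.0696, limma). H2bc14 had 12.33, 9.61 and 9.63 under Mbnl1 siRNA and 12.92, 9.80 and 9.39 under control siRNA, a difference of 0.84 ± 0.10 (adjusted p = 0.0514, limma). Both were lower under Mbnl1 siRNA at 0 h and close to control by the end.

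The linker histone gene H1f5 and the core histone gene H2bc3, named after their values were seen, showed this more fully. H1f5 had 11.21, 7.96 and 8.07 under Mbnl1 siRNA; its level difference from control was −0.79 at 0 h, and the later control values were 8.23 and 8.10. H2bc3 had 10.40, 6.74 and 6.68 under Mbnl1 siRNA and 11.17, 6.98 and 6.70 under control siRNA. At 5 h the arms had converged, and the 5 h differences were 0.76 ± 0.12 for H1f5 and 0.75 ± 0.13 for H2bc3. A 5 h difference is the level gap at 5 h minus that at 0 h. Where the arms converge it is therefore about as large as the 0 h gap by construction. The 4 later values of H2bc3 lay below the intensity limit of 7.38. The last control value of H2bc18 also lay below the limit. With 1 array left out the differences were 0.42 to 1.10 for H1f5 and 0.36 to 1.14 for H2bc3. For the list, the median level difference between Mbnl1 and control siRNA was −0.44 at 0 h and 0.04 at 5 h, and 11 of 14 genes were lower at 0 h against 6 of 14 at 5 h. The 5 h differences are made of these same levels, so this is no separate result. The median change was already −1.87 at 2.5 h and −1.86 at 5 h under Mbnl1 siRNA, against −2.24 and −2.32 under control siRNA, so most of the loss came in the first 2.5 h. Histone genes are near-identical copies, and the probe sets can share signal between them, so these members are not independent. The part of the lower 0 h level and of the plateau after 2.5 h in these differences was not tested.

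Genes of the other cell-cycle lists had small positive values. Of 47 S phase and DNA replication genes, 39 were above 0 with a median of 0.11, and at an unadjusted p under 0.05 there were 8 above and 1 below 0. Pold1, a subunit of DNA polymerase delta, had the highest value, 0.46 ± 0.12 (0.12 without the Mbnl1 siRNA array at 5 h, 0.79 without that at 0 h), and Mcm10, a replication initiation factor gene, had 0.39 ± 0.09. Of 57 G2/M and mitosis genes, 44 were above 0 with a median of 0.10, and 12 above and 2 below 0 had an unadjusted p under 0.05. Ccnf at 0.88 was their highest. Depdc1a, named after its values were seen, was the lowest at −0.60 ± 0.09 (adjusted p = 0.0711, limma), with 7.89, 7.52 and 7.11 under Mbnl1 siRNA and 9.36, 9.37 and 9.18 under control siRNA. Its 5 h Mbnl1 siRNA value lay below the intensity limit. At 0 h, 46 of the 47 S phase genes and 57 of the 57 mitosis genes had a lower level under Mbnl1 siRNA, by a median of −0.43 and −0.68. How many of all genes were lower at 0 h was not counted. The 0 h arrays enter both these levels and the differences of changes, so the 2 are not separate results. In neither list was a gene called, and the part of the lower 0 h levels in these values was not tested.

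The machinery of microRNA function held the list with the lowest median, −0.16 over 13 tested genes, of which 8 were below 0. At an unadjusted p under 0.05 there were 6 below and 0 above 0, and 0 were called. Dicer1, which cuts precursor hairpins into mature microRNAs, had log2 intensities of 10.35, 9.79 and 9.01 under Mbnl1 siRNA and 10.94, 10.66 and 10.27 under control siRNA. It had 39.7% left at 5 h with Mbnl1 siRNA, 67.8% with Cugbp1 siRNA and 63.0% with control siRNA, a difference of −0.67 ± 0.10 (adjusted p = 0.0696, limma).

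Tnrc6a encodes a GW182 protein, the partner of Argonaute that recruits deadenylases. It had 10.08, 9.48 and 8.93 under Mbnl1 siRNA and 9.82, 9.62 and 9.31 under control siRNA, so that the arms crossed, and its difference was −0.64 ± 0.12 (adjusted p = 0.117, limma), or −0.93 to −0.35 with 1 array left out. The other GW182 genes, Tnrc6c and Tnrc6b, had −0.47 ± 0.11 and −0.22 ± 0.09. Ago2, the Argonaute that can cleave its target, had −0.29 ± 0.08, and Ago1 had −0.26 ± 0.09. These 4 were named after their values were seen. The highest value among the 13 genes was 0.17.

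**Figure D4:**
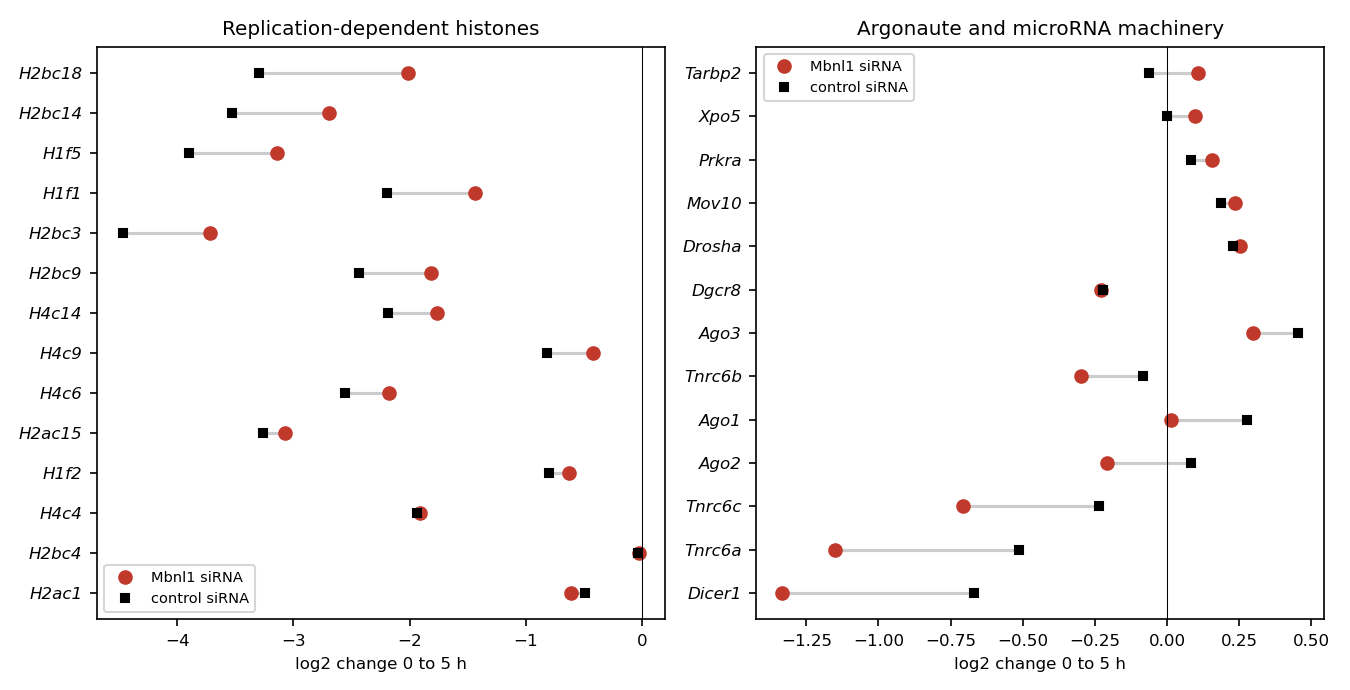
The log2 change from 0 to 5 h is shown for each tested replication-dependent histone (left) and each tested gene of the microRNA machinery (right), with Mbnl1 siRNA as red circles, control siRNA as black squares and a grey line joining them. For 13 of 14 histones the red circle lies to the right of the square, and for 8 of 13 microRNA machinery genes it lies to the left.

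The MBNL and CELF family was examined next, since it includes both siRNA targets. All 7 tested members had a 5 h difference below 0, with a median of −0.15, and 0 were called. For Mbnl1 itself the remaining transcript had a difference of −0.46 ± 0.08 (adjusted p = 0.098, limma), with 73.3% left at 5 h under Mbnl1 siRNA against 101% under control siRNA. Mbnl2 and Mbnl3 had −0.03 ± 0.10 and −0.13 ± 0.09, and Celf1, Celf2 and Celf5 had −0.23 ± 0.14, −0.15 ± 0.09 and −0.29 ± 0.14. The shared sign was not stable. With 1 array left out, the highest values were 0.18 for Mbnl2, 0.02 for Celf1, 0.003 for Celf2 and 0.02 for Celf5. Of 27 transcripts known in muscle as splicing targets of MBNL proteins, 0 were called and none had a difference past 0.5. Their median was −0.03, and their range was −0.29 (Ank2, an ankyrin gene) to 0.09. Insr, the insulin receptor gene, had −0.21 ± 0.09.

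The mRNA decay machinery had 0 called genes in 3 lists. Of 20 deadenylation and BTG/TOB genes, 14 were below 0 with a median of −0.02. Btg2, an antiproliferative protein that recruits the CCR4-NOT deadenylase, had the lowest value, −0.58 ± 0.16 (adjusted p = 0.201, limma), which was −0.09 without the Mbnl1 siRNA array at 0 h and −1.07 without that at 5 h. Its log2 intensities were 8.92, 7.65 and 7.71 under Mbnl1 siRNA and 8.09, 7.30 and 7.47 under control siRNA. The control value of 7.30 lay below the intensity limit. Tob1, of the same family, had −0.18 ± 0.10, and Pan2, a deadenylase subunit gene, 0.26 ± 0.13 (−0.11 to 0.63 with 1 array left out). Of 35 genes for decapping, the exosome and nonsense-mediated decay, 19 were above 0 with a median of 0.04, from Dcp2, the decapping enzyme, at −0.42 ± 0.15 to its cofactor Dcp1a at 0.29 ± 0.10. With 1 array left out, the value of Dcp2 was −0.89 to 0.05. Of 17 genes for AU-rich, GU-rich and Pumilio binding proteins the median was 0.00, and Zfp36l2, a deadenylation-promoting factor, was the lowest at −0.37 ± 0.10.

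Immediate early genes, which encode short-lived mRNAs of growth-stimulated transcription factors, did not move one way. Of 31 tested, 14 were above 0 and 17 below 0 with a median of −0.03, and 5 above and 4 below 0 had an unadjusted p under 0.05. Myc had log2 intensities of 11.04, 8.90 and 8.96 under Mbnl1 siRNA and 11.02, 8.42 and 8.37 under control siRNA. The 2 arms started level, and 23.8% was left at 5 h with Mbnl1 siRNA, against 19.2% with Cugbp1 siRNA and 15.9% with control siRNA, a difference of 0.58 ± 0.15 (adjusted p = 0.173, limma). That of Myc was 0.13 without the Mbnl1 siRNA array at 0 h and 1.02 without that at 5 h. Cited2, a transcriptional coregulator gene, had 12.17, 10.73 and 9.67 under Mbnl1 siRNA and 12.03, 10.27 and 8.87 under control siRNA, a difference of 0.66 ± 0.10 (adjusted p = 0.0839, limma). Ccn1, a secreted matricellular protein gene, had 0.55 ± 0.22 (−0.20 to 1.30 with 1 array left out).

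Junb, an AP-1 subunit gene, had 8.56, 7.89 and 7.56 under Mbnl1 siRNA and 8.41, 7.72 and 7.93 under control siRNA. Its value was 0.01 at 2.5 h and −0.52 ± 0.15 at 5 h (adjusted p = 0.224, limma). Without the Mbnl1 siRNA array at 5 h the 5 h value was −0.02, and without that at 0 h it was −1.02. Jun, Dusp1, Id2 and Hes1, with 9.59% to 34.6% left under Mbnl1 siRNA and 8.29% to 31.8% under control siRNA, had 5 h differences of 0.12 ± 0.18, 0.21 ± 0.17, 0.13 ± 0.25 and 0.27 ± 0.16. Plk2 had −0.04 ± 0.17 and Zfp36l1 0.06 ± 0.11. None of these 6 differences passed the test. Of 31 signalling feedback inhibitor genes, 23 were above 0 with a median of 0.10, and 0 were called; Socs3 had 0.56 ± 0.16 and Spred2 −0.39 ± 0.08.

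Of 14 tested myogenic regulators, 8 were below 0 with a median of −0.04, and 0 were called. At an unadjusted p under 0.05 there were 4 below and 0 above 0. Myod1, the myogenic determination factor gene, had log2 intensities of 10.30, 9.82 and 9.30 under Mbnl1 siRNA and 10.76, 10.40 and 9.99 under control siRNA. Its 0 h level was 72.3% of control, and the difference was −0.22 ± 0.08 (adjusted p = 0.311, limma). Myf5, its relative, had 41.6% left with Mbnl1 siRNA and 38.3% with control siRNA, a difference of 0.12 ± 0.08. Six4, a homeobox factor gene of the muscle lineage, had −0.35 ± 0.08. Of 23 muscle contraction and differentiation genes the median was −0.01, 0 were called and 3 below and 1 above 0 had an unadjusted p under 0.05, with Ckm, muscle creatine kinase, the lowest at −0.33 ± 0.08.

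**Figure D5:**
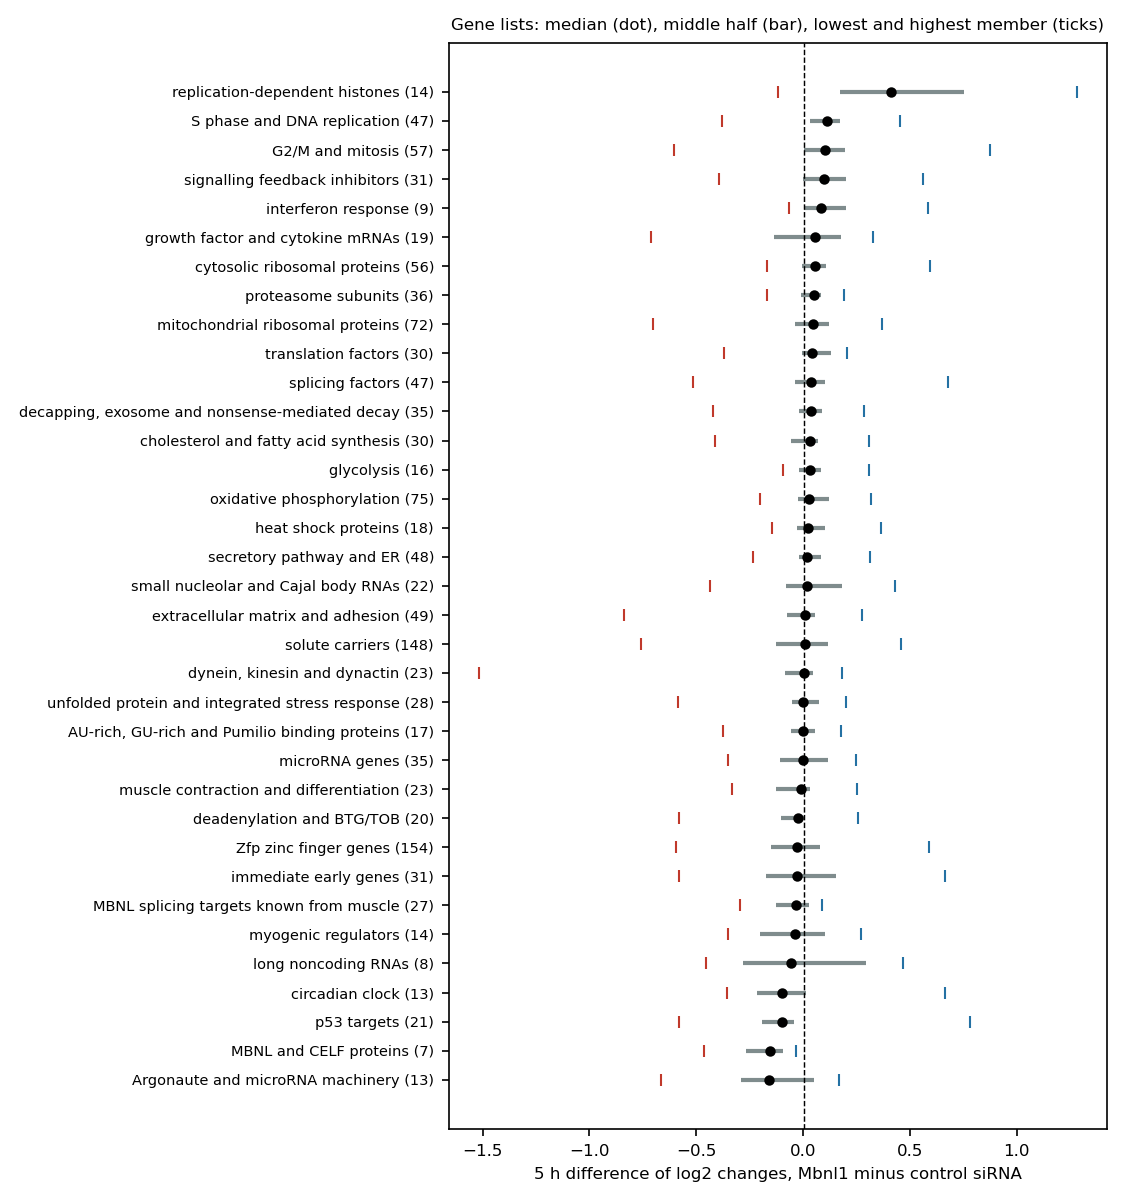
For each of the 35 gene lists (tested members in brackets), the dot is the median 5 h difference of changes (Mbnl1 minus control siRNA), the bar spans the middle 50% of members and the ticks mark the lowest and highest member. Replication-dependent histones have the highest median (0.41) and the microRNA machinery the lowest (−0.16), and most other medians lie within 0.1 of 0.

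Lists of housekeeping genes, whose mRNAs are mostly long-lived, had medians near 0. They were 0.05 for 56 cytosolic ribosomal protein genes, 0.03 for 75 oxidative phosphorylation genes, 0.05 for 72 mitochondrial ribosomal protein genes and 0.05 for 36 proteasome genes, with 0 called in each. Among the 72 mitochondrial ribosomal protein genes, 6 below and 5 above 0 had an unadjusted p under 0.05. Over all genes the shares were 7.93% below and 5.87% above 0. Mrpl36, at 43.8% of control at 0 h, was their lowest at −0.70 ± 0.13 (adjusted p = 0.114, limma), and −1.11 to −0.29 with 1 array left out. Rps15a, a cytosolic ribosomal protein gene, had 0.59 ± 0.13. Actb had 0.01 ± 0.08. Of 154 Zfp zinc finger genes, whose mRNAs are mostly short-lived, 0 were called, 15 above and 17 below 0 had an unadjusted p under 0.05, and the median was −0.03. Of 148 solute carrier genes, 11 above and 17 below 0 had an unadjusted p under 0.05. Slc40a1, the gene of the iron exporter ferroportin, had the lowest value, −0.76 ± 0.15 (−1.17 to −0.35 with 1 array left out). Its control values of 7.19, 6.88 and 6.84 were all below the intensity limit. The gene passed that limit only through its values under Mbnl1 and Cugbp1 siRNA. Next was the amino acid transporter gene Slc7a6 at −0.73 ± 0.08 (adjusted p = 0.0514, limma).

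Other regulatory lists held single large values around medians close to 0, and 0 genes were called in them. Clk1 and Clk4, kinases of SR splicing factors, had 0.68 ± 0.17 (0.30 to 1.06 with 1 array left out) and 0.56 ± 0.11 (0.39 to 0.72), while the 47 splicing factor genes had a median of 0.04. Hnrnph2, an hnRNP gene named after its values were seen, was their lowest at −0.51 ± 0.10. Of 13 circadian clock genes 9 were below 0 with a median of −0.10. Nr1d1, the REV-ERBalpha repressor gene, had 0.67 ± 0.20, but −0.03 to 1.36 with 1 array left out. Of 21 p53 target genes 17 were below 0 with a median of −0.10, and Plk3 was the highest.

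Among secreted and surface proteins, Sdc3, a syndecan gene, had log2 intensities of 7.66, 7.24 and 7.28 under Mbnl1 siRNA and 9.07, 9.20 and 9.52 under control siRNA. Its later Mbnl1 siRNA values, 7.24 and 7.28, lay below the intensity limit. The arms did not overlap, and its difference was −0.84 ± 0.14 (adjusted p = 0.0948, limma), the lowest of 49 extracellular matrix and adhesion genes with a median of 0.01. With 1 array left out it was −1.22 to −0.46. Pdgfb, a platelet-derived growth factor gene, had −0.71 ± 0.17 (−1.27 to −0.15 with 1 array left out) and the colony-stimulating factor gene Csf1 −0.46 ± 0.10 (−0.72 to −0.19), in a list of 19 growth factor and cytokine genes with a median of 0.06. Chac1, which degrades glutathione and is a target of the integrated stress response, had −0.59 ± 0.13 in a list of 28 with a median of 0.00. None of these lists held a called gene.

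Fos, Myog and Zfp36 were below the intensity limit and were not tested, and Cdkn1a and Gapdh had no probe set with that single symbol. The 3974 probe sets without a single gene symbol that passed the intensity limit were tested apart. Of these 0 were called in either direction (limma), 138 above and 119 below 0 had an unadjusted p under 0.05, and the smallest adjusted p was 0.73.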

How the data were processed

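Per the labels' protocols, 100 ng of RNeasy-purified RNA per array was biotin-labelled. Per the submitters' processing notes, RMA values were made in Affymetrix Expression Console; their versions were not given in the sources used here. Judged from the values, the deposited unit is intensity on a linear scale, and the authors' RMA values were converted to log2 here. RMA gives arrays a common distribution, so changes are relative to other transcripts. Symbols came from the platform annotation. The probe set with the highest mean stood for each gene, and a mean log2 of at least 7.38, the 50th percentile, was required. limma 3.58.1 in R 4.3.3 (lmFit, eBayes) fitted siRNA, time as a factor and an hourly line per siRNA on the 9 arrays. The contrast was Mbnl1 minus control slope, adjusted by Benjamini-Hochberg over 9864 genes. The fit was tested on simulated data. Lists are described by counts and medians, with no set test. Genes named were the 10 lowest and 10 highest moderated t, called genes of each list or else its 2 largest differences, 26 genes of interest, and others said to be seen first. Members and lists were chosen with earlier results of these data known. No sequences are given. Alternatives changed the arrays fitted, the model, filter, scaling, probe set rule and prior.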

Additional observations from a re-analysis of the deposited data

Results flagged for a closer look

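The change over time differed between Mbnl1 and control siRNA cells by the slope test for 2 genes. Dync1li1 had a 5 h difference of changes of −1.52 ± 0.11 and Ctns one of −1.50 ± 0.11 (SE, 3 arrays per siRNA, 1 at each time). The adjusted p was 0.0279 for each (limma). In both genes each Mbnl1 siRNA array lay below each control siRNA array, at 0 h too. That is a difference of level, and the share of all genes with such a gap was not counted.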

How the results depend on the processing

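The calls depended on the processing: 0 genes were called above 0 and 2 below 0 in the reported fit, and the alternatives gave 0 and 0 with the 6 Mbnl1 and control siRNA arrays only, with a straight line and no shared time course, with a step shared by 2.5 and 5 h, and with no filter. The counts above and below 0 were 23 and 88 with the filter at the 70th percentile, 3 and 27 with equal ribosomal protein medians, 0 and 2 with equal oxidative phosphorylation medians, 3 and 17 with the mean of a gene's probe sets, 44 and 148 with limma's trend, and 10 and 36 with 50 added before log2. Leaving out 1 array gave 0 to 52 above and 0 to 151 below 0. Without the Mbnl1 siRNA array at 2.5 h the counts were 52 and 151, without that at 5 h 1 and 6, without the control array at 2.5 h 0 and 2, and 0 and 0 without any of the other 6; the cause was not tested. The trend, the 70th percentile and the fit without the Mbnl1 array at 2.5 h shared 77 called genes. These fits give each gene the same slope difference and change only its variance or the number of tests. Their overlap is therefore no independent agreement. Ctns kept its sign in 18 of 18 alternatives and was called in 8 (adjusted p 0.000131 to 0.46, limma), and Dync1li1 in 19 of 19 and 9 (3.54e-05 to 0.484). Many alternatives cannot change a slope difference, among them those without a 2.5 h or Cugbp1 siRNA array. Signs kept in those are no evidence of stability. With equal ribosomal protein medians the all-gene median moved by less than 0.1, and the dynein, histone and solute carrier lists had 2, 1 and 2 called members. Of 1851 pairs of a gene and an alternative over 100 named genes, 25 changed sign, none of them for a gene called in the reported fit. Hourly slope differences became 0.00349 for Celf2 (mean of probe sets) and −0.00341 for Actb (equal ribosomal protein medians), and per step 0.0287 for Mbnl2, 0.0808 for Plk2 and −0.109 for Id2. With 1 array left out, slope differences per h were −0.178 to 0.01004 for Dcp2, −0.123 to 0.004787 for Celf5, −0.0983 to 0.004327 for Celf1, −0.0614 to 0.000506 for Celf2, −0.0486 to 0.0355 for Mbnl2, −0.120 to 0.103 for Plk2, −0.0473 to 0.0695 for Zfp36l1, −0.153 to 0.206 for Id2, −0.0931 to 0.142 for Jun, −0.0707 to 0.155 for Dusp1, −0.0244 to 0.134 for Hes1, −0.0225 to 0.125 for Pan2, −0.0391 to 0.260 for Ccn1 and −0.00600 to 0.272 for Nr1d1. No paired analysis was possible because each siRNA and time has 1 array and the labels give no replicate numbers.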
